A study of Homo sapiens with 6 samples.

Results

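The genes described here encode AMP-activated protein kinase (AMPK) and the kinases that switch it on. The list held 10 genes, chosen by symbol: PRKAA1, PRKAA2, PRKAB1, PRKAB2, PRKAG1 and PRKAG2 for the AMPK subunits, and STK11, STRADA, CAB39 and CAMKK2 for the upstream kinases and their partners. Of these, 9 were among the 10487 genes measured, and STRADA was not analysed here. The authors kept genes with a mean above 5 CPM (counts of reads scaled to library size) in either condition, so each of the 9 had passed that filter. The comparison asks whether the message for AMPK and its activators differs between breast cancer cells made to overexpress IGFBP2 and control cells.

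All libraries came from MDA-MB-468, an established human triple negative breast cancer (TNBC) cell line. The 3 control libraries have the genotype WT. The 3 IGFBP2-overexpressing libraries, with the genotype IGFBP2 overexpression, come from MDAMB468-VPH-IGFBP2 cells, in which a catalytically inactive Cas9 carrying transcriptional activators is brought to the IGFBP2 promoter by a guide RNA after lentiviral delivery, selection and sorting. Neither group was treated with a drug, and the labels give the replicates as biological. The sources do not state that the control cells carried the activator or were sorted, so effects of the activator, the sort and IGFBP2 cannot be told apart. Libraries are numbered by their replicate. RNA was sequenced by QuantSeq, which yields about 1 read for each captured transcript end, so levels of different genes were compared as CPM without division by length. Capture can differ between 3′ ends, so a ratio of 2 genes is a ratio of reads, not of molecules.

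AMPK is a heterotrimer that senses cellular energy. The alpha subunit is the kinase, the beta subunit holds the complex together and binds glycogen, and the gamma subunit binds AMP, ADP and ATP. AMPK becomes active when a threonine in the activation loop of the alpha subunit is phosphorylated, either by LKB1 (encoded by STK11) bound to a STRAD pseudokinase and the scaffold MO25 (CAB39), or by the calcium-dependent kinase CAMKK2. Active AMPK slows lipid and protein synthesis and favours glucose uptake, fatty acid oxidation and autophagy. Kinase activity, phosphorylation and protein were not measured in these libraries.

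Each subunit is encoded by paralogs, so the first question was whether 3′ reads can tell them apart. Sequences of the reference transcripts (GENCODE 44, GRCh38) are shown here because the isoform comparisons rest on this. The capitals mark the longest stretch of coding sequence that both paralogs share, and the lower case letters are the coding bases on each side. For the alpha subunits it encodes part of the glycine-rich ATP-binding loop, and for the beta subunits part of the carbohydrate-binding module. The alpha pair shared 24 bases in exon 1 of both transcripts, at chr5:40798064-40798087 on the minus strand and chr1:56645457-56645480 on the plus strand.
PRKAA1: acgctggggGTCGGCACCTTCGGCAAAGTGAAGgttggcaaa
PRKAA2: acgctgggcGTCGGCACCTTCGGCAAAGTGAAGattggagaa
The beta pair shared 20 bases, in exon 3 at chr12:119674013-119674032 on the plus strand and in exon 4 at chr1:147166871-147166890 on the minus strand.
PRKAB1: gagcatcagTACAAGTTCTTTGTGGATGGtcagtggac
PRKAB2: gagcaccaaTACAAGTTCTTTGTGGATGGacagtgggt
The gamma pair shared 12 bases, in exon 5 at chr12:49005312-49005323 and in exon 8 at chr7:151574897-151574908, both on the minus strand.
PRKAG1: ctgcaccgcTACTATAAATCAgccttggta
PRKAG2: ctacatagaTACTATAAATCAcctatggta
These stretches lay far from the region QuantSeq reads. The alpha stretch was 4943 bases from the transcript end in PRKAA1 and 9188 bases in PRKAA2, the beta stretch 1715 bases in PRKAB1 and 4886 bases in PRKAB2, and the gamma stretch 1318 bases in PRKAG1 and 1785 bases in PRKAG2. Within the last 500 bases of the paralogs, the longest run in common was 11 bases for the alpha, 10 for the beta and 9 for the gamma pair.

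The depth behind these values was modest. The listed genes held 2497353 to 4579587 reads in the control libraries and 2547997 to 3069734 reads in the IGFBP2-overexpressing libraries. The median absolute log2 difference between libraries was 0.31 to 0.32 within the control group, 0.21 to 0.27 within the IGFBP2-overexpressing group and 0.29 to 0.33 between groups. IGFBP2, the targeted gene, was at 93.5, 87.3 and 136 CPM across control libraries 1, 2 and 3 and at 566, 1176 and 498 CPM across IGFBP2-overexpressing libraries 1, 2 and 3. All IGFBP2-overexpressing libraries were above all control libraries, and IGFBP2 rose by a log2 fold change of 2.73 (SE 0.33, adjusted p = 0.0148, limma with Benjamini-Hochberg adjustment). All 7 epithelial markers examined were measured, with a summed level of 4670 to 6191 CPM in control and 5254 to 6533 CPM in IGFBP2-overexpressing libraries. Of 8 immune, fibroblast and endothelial markers, only COL1A1 was measured, at 12.2 to 27.5 CPM in control and 9.36 to 15.8 CPM in IGFBP2-overexpressing libraries. Of the receptors that are low in TNBC, ERBB2 was measured, at 15.8 to 37.0 CPM in control and 16.8 to 24.0 CPM in IGFBP2-overexpressing libraries, and ESR1 and PGR were not analysed here.

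None of the 9 AMPK genes passed the test between IGFBP2-overexpressing and control cells. By limma, 0 of 9 had an adjusted p under 0.05, beside 66 of 10487 genes overall (0.629%). At an unadjusted p under 0.05 the count was also 0 of 9, beside 13% of all genes, and limma voom on the recovered reads called 0 of 9, beside 1.34% of all genes. In each of the 9 genes the values of both groups overlapped, and the groups did not overlap for 18% of all genes. A count of 0 of 9 can arise at each of these shares, so it does not set the AMPK genes apart from all genes. On the log2 scale the difference was positive for 5 genes and negative for 4, with a median of 0.0031, beside 9.8e-05 over all genes. These counts cover 9 genes of the list and not STRADA. A gene low in both groups would have been removed before deposit. The last 500 bases of the STRADA transcript also overlap another protein-coding gene on the same strand (ENSG00000125695), so reads there cannot be separated by position. Why STRADA is missing was not tested, and its level is not known here. The 95% intervals were wide: across the 9 genes they reached from 0.514-fold to 2.06-fold. These are folds of CPM + 1, which understate changes of low genes. A change of any size inside a gene's interval remains compatible with its values at this depth, with 3 libraries per group. In bulk RNA, fewer cells of a kind and less RNA per cell cannot be told apart.

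**Figure D1:**
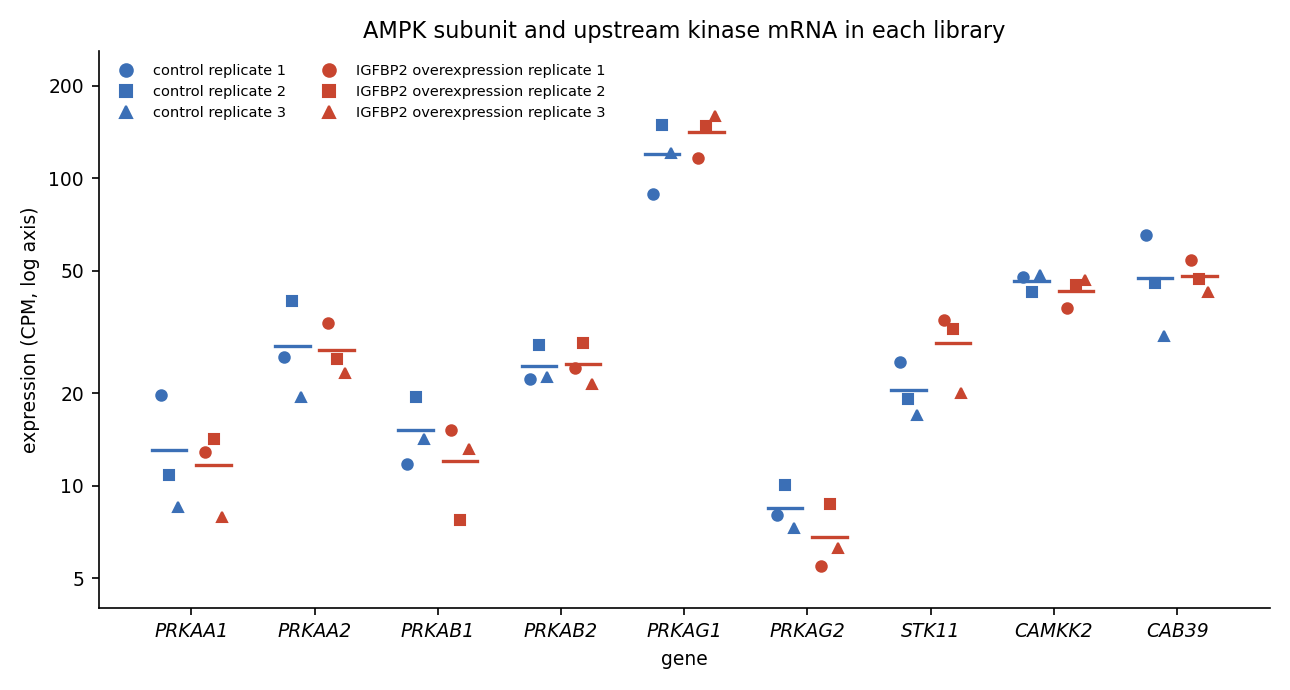
Expression of the 9 AMPK genes in CPM (log axis) in the 3 control (blue) and 3 IGFBP2-overexpressing (red) libraries, with the replicate given by the symbol and the group mean by a horizontal line. Control and IGFBP2-overexpressing libraries overlap for every gene, and PRKAG1 lies above all other genes in each library, at 88.8 to 159 CPM.

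The level of the 9 messages spanned more than an order of magnitude. In control cells the order of the mean levels was PRKAG1, CAB39, CAMKK2, PRKAA2, PRKAB2, STK11, PRKAB1, PRKAA1 and PRKAG2. PRKAG1, at a mean of 120 CPM, stood at the 86.2 percentile of all genes by mean expression over the 6 libraries, and PRKAG2, at 8.43 CPM, at the 11.1 percentile. In the control libraries 2 steps in this order were free of overlap, that from PRKAG1 to CAB39 and that from CAMKK2 to PRKAA2, and all other neighbours overlapped. In IGFBP2-overexpressing cells the order was the same except that STK11 stood above PRKAA2 and PRKAB2, and it overlapped with PRKAA2. There the gap between PRKAB2 and PRKAB1 was also free of overlap.

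PRKAA1 encodes the alpha1 catalytic subunit (chr5:40759389-40798374, minus strand). Its level was 19.8, 10.8 and 8.49 CPM across control libraries 1, 2 and 3 and 12.9, 14.2 and 7.88 CPM across IGFBP2-overexpressing libraries 1, 2 and 3. Both the highest and the second lowest value were in the control group, and the lowest was in IGFBP2-overexpressing library 3. The means were 13.0 ± 5.94 CPM (SD, n = 3) in control and 11.7 ± 3.33 CPM (SD, n = 3) in IGFBP2-overexpressing cells. Its log2 fold change was -0.11 (SE 0.32, adjusted p = 0.927, limma), with a 95% interval from -0.84 to 0.62. PRKAA1 was counted on 21 to 89 reads per library, and its coefficient of variation in control cells, 45.6%, was larger than the 16.8% that counting error alone would give. These fold changes are on the log2(CPM + 1) scale, which understates changes of low genes.

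PRKAA2 encodes the alpha2 catalytic subunit (chr1:56645314-56715335, plus strand). Its level was 26.2, 39.8 and 19.4 CPM across control libraries 1, 2 and 3 and 33.9, 25.8 and 23.3 CPM across IGFBP2-overexpressing libraries 1, 2 and 3. The control libraries held both the highest and the lowest value, and the IGFBP2-overexpressing values lay between them. The means were 28.5 ± 10.4 CPM (SD, n = 3) in control and 27.7 ± 5.54 CPM (SD, n = 3) in IGFBP2-overexpressing cells. The log2 fold change was 0.0031 (SE 0.28, adjusted p = 0.996, limma), with a 95% interval from -0.62 to 0.63.

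PRKAA2 gave more reads than PRKAA1 in every library. The share of alpha subunit reads from PRKAA1 was 43.0%, 21.4% and 30.4% across control libraries 1, 2 and 3 and 27.5%, 35.5% and 25.3% across IGFBP2-overexpressing libraries 1, 2 and 3. The spread was largest in the control group, where the 95% Wilson interval of library 1 (36.4% to 49.8%) did not meet that of library 2 (16.1% to 28.0%). Wilson intervals cover counting error only. The log2 ratio of PRKAA1 to PRKAA2 reads differed between groups by -0.12 (exact permutation test, two-sided, p = 0.9, adjusted p = 0.9 over 5 ratios). The smallest p that 3 libraries against 3 can give is 0.1, so no ratio could pass 0.05.

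**Figure D2:**
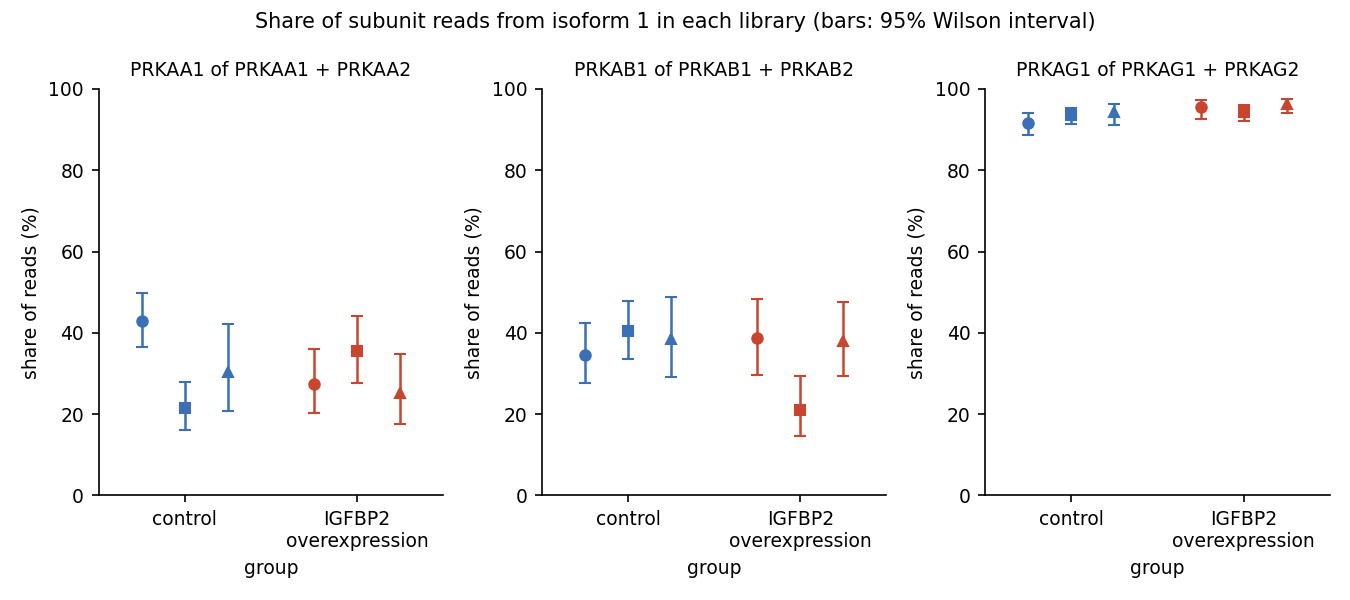
Share (%) of alpha, beta and gamma subunit reads that came from PRKAA1, PRKAB1 and PRKAG1 in each control (blue) and IGFBP2-overexpressing (red) library, with 95% Wilson intervals as bars. PRKAA1 and PRKAB1 gave the smaller share in every library, 21.1% to 43.0%, and PRKAG1 gave 91.7% to 96.2%.

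PRKAB1 encodes the beta1 subunit (chr12:119667864-119681624, plus strand). Its level was 11.8, 19.5 and 14.2 CPM across control libraries 1, 2 and 3 and 15.2, 7.75 and 13.1 CPM across IGFBP2-overexpressing libraries 1, 2 and 3. The value of IGFBP2-overexpressing library 2, from 24 reads, was the lowest of all, and the other IGFBP2-overexpressing values lay within the control range. The means were 15.1 ± 3.94 CPM (SD, n = 3) in control and 12.0 ± 3.85 CPM (SD, n = 3) in IGFBP2-overexpressing cells. On the log2 scale the difference was -0.33 (SE 0.28, adjusted p = 0.684, limma), with a 95% interval from -0.96 to 0.31. With each library left out in turn it ran from -0.51 to -0.064, the latter without IGFBP2-overexpressing library 2.

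PRKAB2 encodes the beta2 subunit (chr1:147155106-147172550, minus strand). Its level was 22.2, 28.6 and 22.6 CPM across control libraries 1, 2 and 3 and 24.2, 29.1 and 21.4 CPM across IGFBP2-overexpressing libraries 1, 2 and 3. The groups covered nearly the same range, with means of 24.5 ± 3.60 CPM (SD, n = 3) in control and 24.9 ± 3.90 CPM (SD, n = 3) in IGFBP2-overexpressing cells. Its log2 fold change was 0.019 (SE 0.20, adjusted p = 0.982, limma), with a 95% interval from -0.44 to 0.47.

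PRKAB2 gave more reads than PRKAB1 in every library, so PRKAA2 and PRKAB2, the forms numbered 2, were the more abundant alpha and beta messages by reads. The share of beta subunit reads from PRKAB1 was 34.6%, 40.5% and 38.5% across control libraries 1, 2 and 3 and 38.6%, 21.1% and 38.1% across IGFBP2-overexpressing libraries 1, 2 and 3. IGFBP2-overexpressing library 2 lay below the other libraries, and the other 5 lay within 34.6% and 40.5%. The log2 ratio of PRKAB1 to PRKAB2 reads differed between groups by -0.38 (exact permutation test, two-sided, p = 0.6, adjusted p = 0.75).

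PRKAG1 encodes the gamma1 subunit (chr12:49002274-49018807, minus strand). Its level was 88.8, 149 and 121 CPM across control libraries 1, 2 and 3 and 117, 148 and 159 CPM across IGFBP2-overexpressing libraries 1, 2 and 3. The lowest value was in control library 1 and the highest in IGFBP2-overexpressing library 3, with overlap between. The means were 120 ± 30.2 CPM (SD, n = 3) in control and 141 ± 22.1 CPM (SD, n = 3) in IGFBP2-overexpressing cells. The log2 fold change was 0.26 (SE 0.24, adjusted p = 0.71, limma), with a 95% interval from -0.28 to 0.80. It was 0.060 without control library 1 and 0.43 without control library 2. PRKAG1 had the deepest coverage of the 9 genes, 299 to 536 reads per library. The last 500 bases of its transcript overlap another annotated gene on the same strand (ENSG00000288710) and the antisense gene DDN-AS1, so reads from the former cannot be separated from those of PRKAG1 by position.

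PRKAG2 encodes the gamma2 subunit (chr7:151556124-151877214, minus strand). Its level was 7.99, 10.01 and 7.28 CPM across control libraries 1, 2 and 3 and 5.46, 8.72 and 6.24 CPM across IGFBP2-overexpressing libraries 1, 2 and 3. The lowest 2 values were in IGFBP2-overexpressing libraries, and IGFBP2-overexpressing library 2 lay within the control range. The means were 8.43 ± 1.42 CPM (SD, n = 3) in control and 6.81 ± 1.70 CPM (SD, n = 3) in IGFBP2-overexpressing cells. On the log2 scale the difference was -0.28 (SE 0.22, adjusted p = 0.643, limma), with a 95% interval from -0.78 to 0.21. It was -0.16 without IGFBP2-overexpressing library 1, -0.17 without control library 2 and -0.45 without IGFBP2-overexpressing library 2. PRKAG2 rested on 14 to 36 reads per library, the fewest of the 9 genes.

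The ratio of PRKAG1 to PRKAG2 was the only one of the 5 ratios whose groups did not overlap. It was 11.1, 14.9 and 16.6 across control libraries 1, 2 and 3 and 21.4, 17.0 and 25.5 across IGFBP2-overexpressing libraries 1, 2 and 3. The 3 IGFBP2-overexpressing values lay above the 3 control values, the nearest being 17.0 against 16.6. The log2 ratio was 0.58 higher in IGFBP2-overexpressing cells (two-sided exact permutation p = 0.1, the lowest possible, adjusted p = 0.5), and it did not pass the correction. As a share, PRKAG1 made up 93.3% ± 1.35 (SD, n = 3) of gamma subunit reads in control and 95.4% ± 0.898 (SD, n = 3) in IGFBP2-overexpressing cells. Ratio and share rest on 14 to 36 PRKAG2 reads per library, and on PRKAG1, whose end overlaps another gene on the same strand. The Wilson interval of IGFBP2-overexpressing library 2 (92.0% to 96.2%) overlapped those of all control libraries, the highest of which was 91.2% to 96.4%.

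STK11 encodes LKB1, the main upstream kinase of AMPK and a tumour suppressor (chr19:1177558-1228431, plus strand). Its level was 25.3, 19.2 and 17.0 CPM across control libraries 1, 2 and 3 and 34.7, 32.3 and 20.04 CPM across IGFBP2-overexpressing libraries 1, 2 and 3. IGFBP2-overexpressing libraries 1 and 2 lay above all control libraries, and library 3 lay between control libraries 2 and 1. The means were 20.5 ± 4.31 CPM (SD, n = 3) in control and 29.0 ± 7.86 CPM (SD, n = 3) in IGFBP2-overexpressing cells. STK11 had the largest difference and the smallest p of the 9 genes: the log2 fold change was 0.46 (SE 0.26, adjusted p = 0.488, limma), with a 95% interval from -0.12 to 1.04. With 1 library dropped the log2 fold change ran from 0.32 (without IGFBP2-overexpressing library 1) to 0.70 (without IGFBP2-overexpressing library 3). In the latter the adjusted p was 0.293, the lowest that any of the 9 genes reached under any alternative. The end of the STK11 transcript overlaps CBARP on the opposite strand.

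CAB39 encodes MO25, the scaffold that stabilises LKB1 in its active form (chr2:230712842-230821075, plus strand). Its level was 65.3, 45.6 and 30.7 CPM across control libraries 1, 2 and 3 and 54.2, 47.1 and 42.7 CPM across IGFBP2-overexpressing libraries 1, 2 and 3. Control replicates 1 and 3 held the extremes, and all IGFBP2-overexpressing values lay between them. The coefficient of variation was 36.7% in control and 12.1% in IGFBP2-overexpressing cells, beside 8.69% and 8.51% from counting error alone. Its log2 fold change was 0.081 (SE 0.27, adjusted p = 0.934, limma), with a 95% interval from -0.54 to 0.70. The ratio of CAB39 to STK11 was 2.58, 2.38 and 1.81 across control libraries 1, 2 and 3 and 1.56, 1.46 and 2.13 across IGFBP2-overexpressing libraries 1, 2 and 3. These groups overlapped, and the log2 ratio differed by -0.40 (exact permutation test, two-sided, p = 0.2, adjusted p = 0.5).

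CAMKK2 encodes the calcium and calmodulin-dependent kinase that phosphorylates AMPK without LKB1 (chr12:121237675-121298308, minus strand). Its level was 47.7, 42.6 and 48.5 CPM across control libraries 1, 2 and 3 and 37.8, 44.9 and 46.6 CPM across IGFBP2-overexpressing libraries 1, 2 and 3. CAMKK2 was the steadiest of the 9 genes: its coefficient of variation was 7.0% in control and 10.8% in IGFBP2-overexpressing cells, close to the 8.07% and 9.05% from counting error alone. The log2 fold change was -0.10 (SE 0.18, adjusted p = 0.862, limma), with a 95% interval from -0.51 to 0.31, the narrowest of the 9. With 1 library dropped it ran from -0.16 to -0.014, the latter without IGFBP2-overexpressing library 1. CAMKK2 gave more reads than STK11 in every library. The ratio was 1.89, 2.22 and 2.86 across control libraries 1, 2 and 3 and 1.09, 1.39 and 2.33 across IGFBP2-overexpressing libraries 1, 2 and 3. The lowest 2 ratios were in IGFBP2-overexpressing libraries, the groups overlapped, and the log2 ratio differed by -0.59 (exact permutation test, two-sided, p = 0.3, adjusted p = 0.5).

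**Figure D3:**
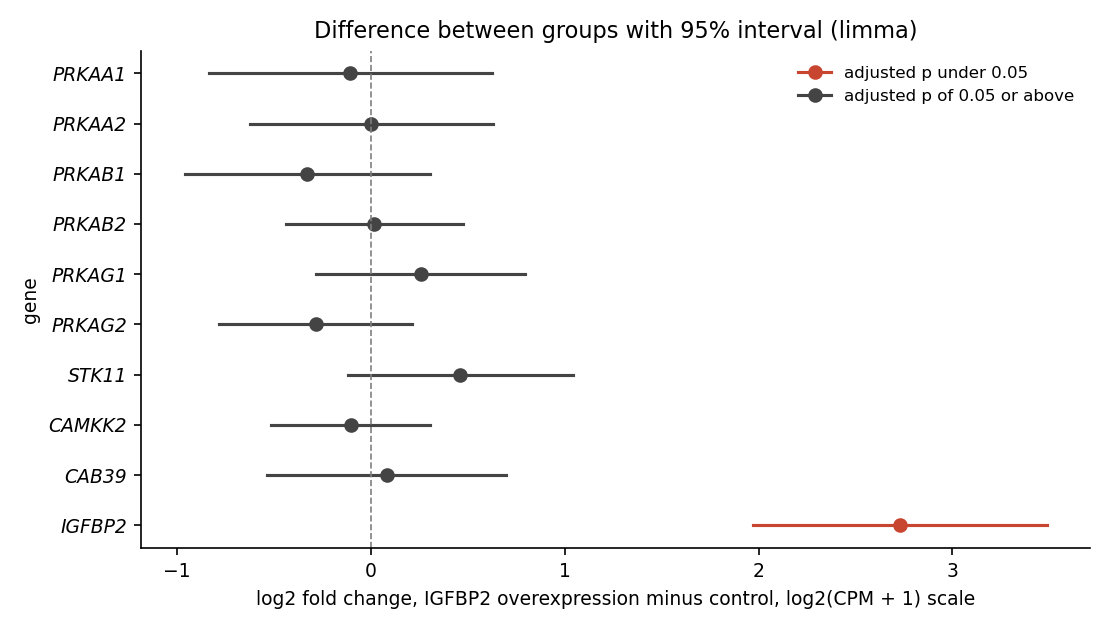
Log2 fold change (IGFBP2-overexpressing minus control, on the log2(CPM + 1) scale) of the 9 AMPK genes and of IGFBP2, with 95% intervals from limma as lines. Every AMPK interval crosses 0, with STK11 farthest to the right at 0.46 (-0.12 to 1.04), while that of IGFBP2 lies at 1.97 to 3.49.

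Summed over paralogs, the message for each subunit also overlapped between groups. The alpha subunits summed to 46.0, 50.6 and 27.9 CPM across control libraries 1, 2 and 3 and to 46.8, 40.0 and 31.2 CPM across IGFBP2-overexpressing libraries 1, 2 and 3. The beta subunits summed to 34.0, 48.1 and 36.8 CPM in control and 39.4, 36.8 and 34.5 CPM in IGFBP2-overexpressing libraries in the same order. The gamma subunits summed to 96.8, 159 and 128 CPM in control and 122, 157 and 165 CPM in IGFBP2-overexpressing libraries. In every library the gamma sum was above the alpha and the beta sums, with the limit that the end of PRKAG1 overlaps another gene. STK11 and CAB39, the LKB1 complex genes measured, summed to 90.6, 64.8 and 47.7 CPM in control and 88.9, 79.4 and 62.7 CPM in IGFBP2-overexpressing libraries. The differences of the log2 sums were -0.051 for alpha, -0.089 for beta, 0.23 for gamma and 0.22 for the LKB1 complex genes. Their exact permutation p-values (two-sided) were 0.9, 0.9, 0.6 and 0.7, with an adjusted p of 0.9 for each of the 4. The smallest p this test can give is 0.1, so no sum could pass 0.05, and these p-values do not show that the sums are equal.

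Around AMPK, 8 lists of related genes held 109 symbols, of which 91 were measured. By limma, 1 of the 91 rose and 0 fell in IGFBP2-overexpressing cells. The counts were 18 at an unadjusted p under 0.05 (8 higher and 10 lower) and 4 by limma voom (2 higher and 2 lower), where all genes gave 0.629% by limma, 13% at an unadjusted p under 0.05 and 1.34% by limma voom. The 8 higher genes include NUAK1, which passed the filter at 5 CPM only through the group where it is high. The lists were also chosen with earlier results of these data known, so these counts are a description and support no shift. The gene called by limma was PFKP, the platelet form of phosphofructokinase, which catalyses the committed step of glycolysis. PFKP was at 138, 153 and 143 CPM across control libraries 1, 2 and 3 and at 301, 337 and 267 CPM across IGFBP2-overexpressing libraries 1, 2 and 3, all of the latter above all of the former. Its log2 fold change was 1.05 (SE 0.18, adjusted p = 0.0455, limma). The call was lost when any single library was left out, with log2 fold changes between 0.97 and 1.14 and adjusted p up to 0.223.

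**Figure D4:**
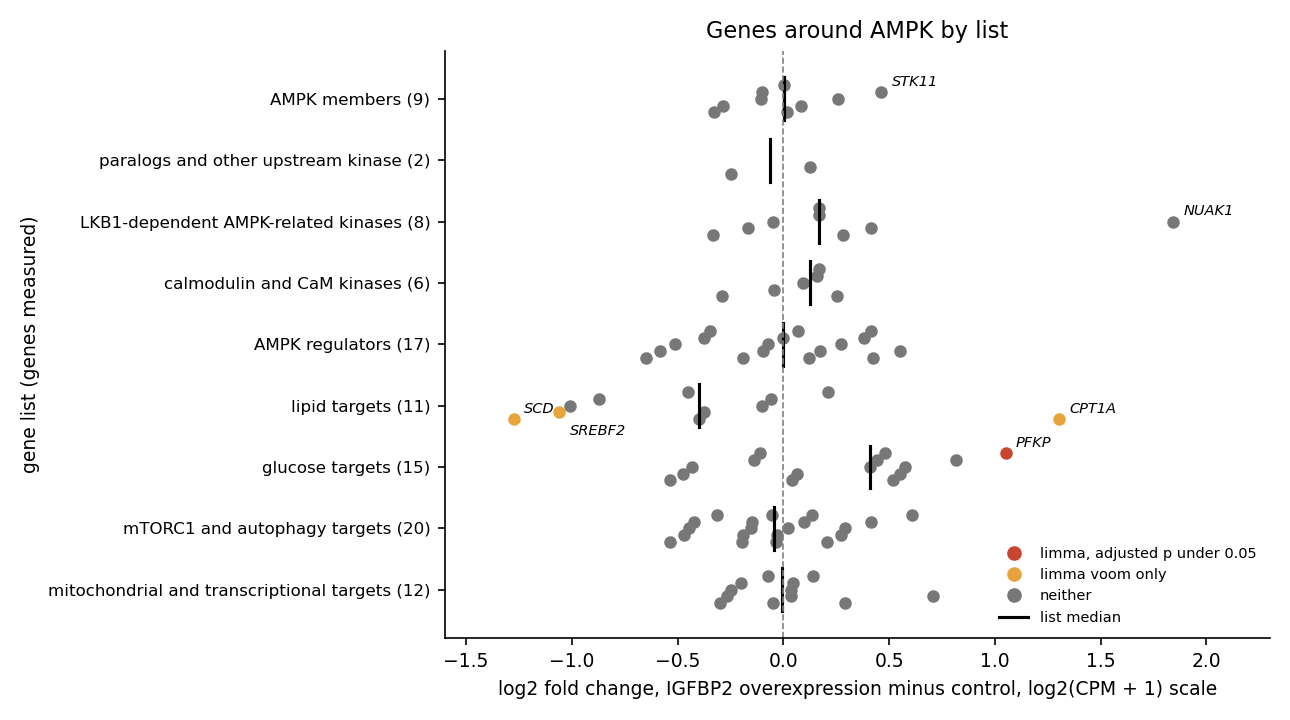
Log2 fold change (IGFBP2-overexpressing minus control, on the log2(CPM + 1) scale) of each measured gene of the AMPK genes and the 8 lists around them, with the list median as a black bar and the colour giving the test passed. The 9 AMPK genes lie between -0.33 and 0.46, while PFKP, CPT1A and NUAK1 lie above 1 and SREBF1 (unlabelled), SREBF2 and SCD below -1.

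The lists closest to AMPK held no called gene. Of the 5 further subunit, partner and kinase genes, 2 were measured: the log2 fold change was 0.13 for STRADB (adjusted p = 0.898, limma), which encodes the other STRAD pseudokinase, and -0.25 for MAP3K7 (adjusted p = 0.641), which encodes TAK1. STRADB was at 5.33, 7.51 and 4.85 CPM across control libraries 1, 2 and 3 and at 3.90, 7.75 and 8.54 CPM across IGFBP2-overexpressing libraries 1, 2 and 3, with overlap between the groups. Of 9 genes for calmodulin, which activates CAMKK2, and CaM kinases, 6 were measured. By limma 0 were called and 0 were at an unadjusted p under 0.05 (13% of all genes), and limma voom called 0. Their median log2 fold change was 0.13, with values of 0.26 for CAMK1D, 0.17 for CALM3 and -0.29 for CAMK2D (adjusted p = 0.662, 0.76 and 0.775, limma). Of 19 regulators of AMPK, such as folliculin, sestrins, Ragulator subunits, phosphatases and adenylate kinases, 17 were measured. Either test called 0, and 2 were lower at an unadjusted p under 0.05, beside 13% of all genes. The median of the 17 was -0.00045. It included LAMTOR3, kept only through its mean of 5.20 CPM in IGFBP2-overexpressing cells (4.49 CPM in control). The 3 smallest p-values were those of LAMTOR4 (-0.58, adjusted p = 0.236, limma), PPM1F (-0.51, adjusted p = 0.274) and LAMTOR5 (0.42, adjusted p = 0.392).

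LKB1 also activates kinases related to AMPK, and 8 of 12 were measured. By limma 0 were called and 1 was at an unadjusted p under 0.05, beside 13% of all genes, and limma voom called 0. That gene was NUAK1, with 2, 9 and 1 reads (0.444, 2.50 and 0.404 CPM) across control libraries 1, 2 and 3 and 14, 22 and 16 reads (5.46, 7.10 and 5.26 CPM) across IGFBP2-overexpressing libraries 1, 2 and 3. Its control mean of 1.12 CPM was below the filter at 5 CPM, so NUAK1 was kept only through its mean of 5.94 CPM in IGFBP2-overexpressing cells. It therefore had to differ, and its values are a description and support no difference. The fitted log2 fold change was 1.84 (adjusted p = 0.0609, limma) and ran from 0.85 with a pseudocount of 5 to 2.74 with a pseudocount of 0.1. NUAK1 passed the threshold without control library 2 (2.27, adjusted p = 0.00858) and with a replicate block (adjusted p = 0.0376). The median of the 8, NUAK1 included, was 0.17, and MARK3 (-0.33, adjusted p = 0.495) and MARK4 (0.41, adjusted p = 0.524) had the next smallest p-values.

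Among lipid genes downstream of AMPK, 11 of 12 were measured. By limma 0 were called, 1 was higher and 4 lower at an unadjusted p under 0.05 (13% of all genes), and limma voom called 1 higher and 2 lower (1.34% of all genes). CPT1A, which brings fatty acids into mitochondria for oxidation, was at 29.8, 45.1 and 39.2 CPM across control libraries 1, 2 and 3 and at 109, 105 and 72.9 CPM across IGFBP2-overexpressing libraries 1, 2 and 3 (log2 fold change 1.30, SE 0.24, adjusted p = 0.0531, limma). SREBF2, a transcription factor of cholesterol synthesis, was at 86.6, 102 and 94.6 CPM in control and 42.5, 40.4 and 52.2 CPM in IGFBP2-overexpressing libraries (log2 fold change -1.06, SE 0.19, adjusted p = 0.0507, limma). SCD, the desaturase that makes monounsaturated fatty acids, was at 237, 424 and 387 CPM in control and 149, 108 and 170 CPM in IGFBP2-overexpressing libraries (log2 fold change -1.27, SE 0.27, adjusted p = 0.1, limma). These 3 genes were named for the smallest p-values of the list in these same data, so the lack of overlap between their groups adds no support. In the list, the groups did not overlap for 1 gene that was higher and 4 that were lower, beside 18% of all genes. The adjusted p-values by limma voom were 0.00714 for CPT1A, 0.00997 for SREBF2 and 0.0126 for SCD. The other genes at an unadjusted p under 0.05, named after their values were seen, were SREBF1 (-1.01, adjusted p = 0.233, limma) and FASN (-0.87, adjusted p = 0.238). ACACA (-0.099, adjusted p = 0.919) and ACACB (-0.45, adjusted p = 0.501) were not at that threshold. Further genes at that threshold in other lists are not named. The median log2 fold change of the 11 genes was -0.40.

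Among glucose genes, 15 of 18 were measured, with PFKP the 1 called by limma and by limma voom. At an unadjusted p under 0.05, 4 were higher and 1 lower, beside 13% of all genes, and the median was 0.41. Means of PFKFB4 were 3.36 CPM in control and 5.545 CPM in IGFBP2-overexpressing cells, and those of CRTC2 3.47 and 5.20 CPM. Both passed the filter at 5 CPM only through the group where they are high. They had to be higher, so this median is a description and supports no shift of the list. PFKFB3, which makes the activator of phosphofructokinase, had a log2 fold change of 0.81 (adjusted p = 0.219, limma) and GYS1, glycogen synthase, of 0.48 (adjusted p = 0.294). Of 21 genes of mTORC1 and autophagy, the growth and self-digestion pathways that AMPK controls, 20 were measured. By limma 0 were called and 4 were at an unadjusted p under 0.05 (1 higher and 3 lower, beside 13% of all genes), limma voom called 0, and the median was -0.043. RHEB, the GTPase that activates mTORC1, had a log2 fold change of 0.61 (adjusted p = 0.196, limma), and its inhibitor TSC1 of -0.47 (adjusted p = 0.321). ULK2, a kinase that starts autophagy, was at -0.45 (adjusted p = 0.34). Of 13 mitochondrial and transcriptional genes, 12 were measured, with 0 called by either test and a median of -0.0054. Of the 12, 1 was higher at an unadjusted p under 0.05, beside 13% of all genes. The 3 with the smallest p-values were TFE3 (0.71, adjusted p = 0.225), PPARGC1B (0.29, adjusted p = 0.54) and HDAC7 (-0.30, adjusted p = 0.545).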

How the data were processed

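Total RNA of 3 control and 3 IGFBP2-overexpressing replicates of MDA-MB-468 was sequenced with the QuantSeq 3′ kit, whose FWD version reads the transcript strand. Reads had been trimmed by the authors (bbduk), aligned to hg38 (STAR) and counted for each gene (HTSeq 0.9.1), and the counts normalized in edgeR. The authors deposited log2(CPM + 1) for 10487 genes, those whose mean exceeded 5 CPM in either condition. Every value, taken back to CPM, was a whole multiple of 1 step per library (100% within 0.01), so whole reads were recovered.

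The deposited log2 values were fitted with limma (version 3.58.1, R 4.3.3) on condition alone, with no mean-variance trend, and p-values received the Benjamini-Hochberg adjustment over all genes (threshold 0.05). This test, the genes and the lists were chosen with earlier results of these data known. The fit was tested on simulated data. Ratios and sums were compared by exact permutation (scipy 1.17.1, Python 3.11.15), and shares of reads carry 95% Wilson intervals. Positions, transcripts and overlapping genes came from GENCODE 44 on GRCh38, and 10462 of 10487 identifiers matched a symbol. The paper names an Ensembl release for its alignment, which was not compared with GENCODE 44. Genes named are IGFBP2, the AMPK genes measured, the markers and, in each list, genes called and the 3 with the smallest unadjusted p. Named beyond this rule, after their values were seen, are SREBF1, FASN, ACACA, ACACB, PFKFB4, CRTC2 and LAMTOR3. The alternatives varied the scaling, variance model, pseudocount and low-value filter, blocked on replicate number, or dropped 1 library.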

Additional observations from a re-analysis of the deposited data

How the results depend on the processing

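No AMPK gene passed the threshold in any of 143 alternative fits (the lowest adjusted p was 0.293), and PRKAG2 was left out by the filter at 10 CPM. All of these fits used limma. The authors tested with edgeR, which was not run here, and the paper reports more differing genes than limma found. These fits therefore do not cover the choice of that test. The log2 fold change of PRKAA2 turned to -0.038 by limma voom and -0.0017 with a pseudocount of 5. Among all genes, the 66 differing became 141 by limma voom, 160 with a mean-variance trend, 37 with a pseudocount of 0.1 and 129 with a pseudocount of 5. The 1 gene called in the lists around AMPK became 0 with scaling to library totals or a pseudocount of 0.5 or 0.1, 2 with median-of-ratios or upper quartile scaling, 3 with the filter at 10 CPM, and 4 by limma voom, with the trend or with a pseudocount of 5. The cause was not tested.

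When 1 library was dropped, the genes differing among all genes ran from 12 (without IGFBP2-overexpressing library 1) to 79, with 13 without IGFBP2-overexpressing library 2 and 17 without control library 3, and the calls in the lists from 0 to 1. IGFBP2 ran from 2.35 to 2.97 on the log2 scale, PRKAA1 from -0.35 to 0.22, PRKAA2 from -0.23 to 0.27, PRKAB2 from -0.095 to 0.13, CAB39 from -0.19 to 0.34 and STRADB from -0.056 to 0.42. The log2 ratio of PRKAA1 to PRKAA2 ran from -0.48 to 0.26, of PRKAB1 to PRKAB2 from -0.59 to 0.032, of PRKAG1 to PRKAG2 from 0.42 to 0.74, of CAB39 to STK11 from -0.56 to -0.29 and of CAMKK2 to STK11 from -0.89 to -0.35. The sums ran from -0.31 to 0.12 for alpha, -0.19 to 0.059 for beta, 0.040 to 0.40 for gamma and -0.0075 to 0.45 for the LKB1 complex genes.

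Replicate numbers are shared between groups without a stated pairing. The correlations of same-numbered deviations were 0.172, -0.064 and 0.0842. Libraries of different numbers were not compared in this way, so these values neither show nor exclude a pairing. With the replicate number as a block, 55 of all genes differed, 0 AMPK genes, and 1 gene in the lists, NUAK1 (adjusted p = 0.0376) in place of PFKP. NUAK1 had passed the filter at 5 CPM only through the group where it is high, so this call supports no difference.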
